A study of Mus musculus with 4 samples.

Results

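The Hes and Hey genes encode repressors of the basic helix-loop-helix-Orange family, and the 9 genes examined were Hes1, Hes2, Hes3, Hes5, Hes6, Hes7, Hey1, Hey2 and Heyl. They were taken by name from a table of 33708 autosomal gene rows, and each name matched 1 row. The frontonasal prominence (FNP), the facial tissue from which the nose and snout form, had been dissected from single mouse embryos at E10.5, all with 29 somites and all of the FVB/NJ strain. The embryos were wild type (WT, Smchd1+/+; 2 libraries, labelled 1 female and 1 male) or homozygous for MommeD43 (MD43, Smchd1MommeD43/MommeD43; 2 libraries, both labelled male), a chemically induced missense allele of Smchd1. WT replicate 2 and MD43 replicate 2 had the same mother. SMCHD1 is a chromatin protein that represses genes, and the genotypes were compared to see which transcripts differ in the developing nose and snout when it carries the MD43 change.

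Notch signalling passes between touching cells. A ligand of the Delta or Jagged type cuts the receptor loose from the membrane, and its inner part joins RBPJ on DNA and switches on Hes and Hey genes. Their products form dimers and silence genes such as the proneural factors, which keeps neural progenitors dividing. The Hes proteins recruit Groucho (TLE) co-repressors. Hes1 and Hes5 are the main effectors in neural progenitors, Hey1 and Hey2 act in arteries and the heart, and Heyl is expressed in vascular smooth muscle. Hes7 drives the somite clock, Hes3 acts near the midbrain-hindbrain boundary, and Hes6 differs from the rest in that it counters Hes1 and promotes neuronal differentiation.

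RefSeq promoter sequences (GRCm38.p6) were at hand for 4 of the 9 genes, namely Hes5, Hes6, Hey2 and Hes7. They are shown because RBPJ is the route from Notch to these genes, and they differ in whether they hold the letters it prefers. Capitals mark the 6-base core TGGGAA on either strand. Sequences run 5′ to 3′ along the gene and leave out exons of coding genes. For Hes6 the window before the more 3′ of its 2 annotated starts is given (start 1 in the plot of motif matches), which lies within the annotated gene. For Hes7, whose promoter lies in an exon of a coding gene on the other strand, 30 bases are given, and exons of the non-coding Gm20421 overlap the Hes5 window. The windows lie at chr4:154960673-154960922 (plus strand) for Hes5, chr10:30842802-30843033 (minus strand) for Hey2, chr11:69120261-69120290 (plus strand) for Hes7 and chr1:91413223-91413472 (minus strand) for Hes6.
Hes5: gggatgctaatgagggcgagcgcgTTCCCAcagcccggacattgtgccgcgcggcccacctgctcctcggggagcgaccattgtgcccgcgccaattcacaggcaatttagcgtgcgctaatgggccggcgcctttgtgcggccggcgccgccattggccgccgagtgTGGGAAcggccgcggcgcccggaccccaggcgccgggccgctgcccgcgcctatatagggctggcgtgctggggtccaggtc
Hey2: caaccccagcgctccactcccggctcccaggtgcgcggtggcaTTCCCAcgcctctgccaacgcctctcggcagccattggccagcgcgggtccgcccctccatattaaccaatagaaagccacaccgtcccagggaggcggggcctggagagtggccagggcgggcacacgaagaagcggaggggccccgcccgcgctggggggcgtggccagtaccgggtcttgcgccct
Hes7: tcctcccctcacTTCCCAcatttggggcta
Hes6: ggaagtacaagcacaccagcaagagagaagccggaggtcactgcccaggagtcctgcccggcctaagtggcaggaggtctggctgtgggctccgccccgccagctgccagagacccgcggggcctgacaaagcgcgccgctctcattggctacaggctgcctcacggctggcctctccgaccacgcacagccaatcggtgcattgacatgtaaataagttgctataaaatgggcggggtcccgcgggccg
The Hes5 window held 2 cores on opposite strands, at -226 to -221 on the minus strand and at -82 to -77 on the plus strand, where -1 is the base before the transcription start. The Hey2 window held 1 core at -207 to -202 and the Hes7 window 1 at -180 to -175, both on the minus strand. No core was found in the 250 bases before either of the 2 annotated Hes6 starts, 1 of which carried a TATA box (TATAAA) at -28 to -23. The 4 cores in Hes5, Hey2 and Hes7 were all part of the longer form GTGGGAA. Among 32851 RefSeq promoter windows of 250 bases, 21.6% held the core and 5.42% the longer form, which contains the core. A second copy of the longer form was rare, since 0.161% of windows had 2 or more. TATAAA was held by 12.4% and the N box CACNAG, found once before a Hes6 start and once before Hes7, by 36.7%, on either strand. A match is a description of these letters and not a binding site.

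**Figure D1:**
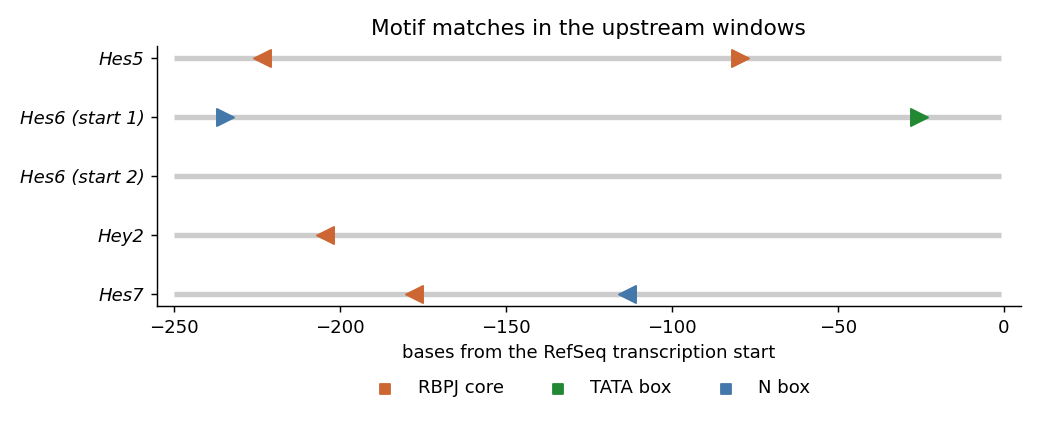
Motif matches in the 250 bases before the RefSeq transcription start of Hes5, Hes6 (2 starts), Hey2 and Hes7; the x axis gives bases from the start, colours give the motif (RBPJ core, TATA box or N box, the CACNAG element that Hes proteins can bind) and arrowheads its strand. Hes5 has 2 RBPJ cores on opposite strands, Hey2 and Hes7 have 1 each, and Hes6 has none.

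Each genotype has 1 value per gene in the table, the authors' mean log2 RPKM (reads scaled to transcript length and library size, on a log2 scale) over 2 libraries. No spread between embryos can be given from it, and no difference below was tested against replicate error. Reads given are the geometric mean of the 2 libraries, recovered from the values. The error beside a log2 difference (MD43 minus WT) is the standard error from counting reads alone, a lower limit on the true error, and the interval is the 95% interval it gives. The values point to a depth per library, as the geometric mean of 2, of 16055882 reads in WT and 22328791 in MD43. By this measure MD43 was 1.39 times as deep. The 11 frontonasal mesenchyme markers were all expressed, among them Msx1 (5.11 log2 RPKM in MD43 and 5.28 in WT) and Twist1 (4.72 and 5.11). The table also held surface ectoderm, neural, vascular and blood markers, so the dissected pieces were mixed tissue, in which fewer cells of a type and less RNA per cell cannot be told apart. Smchd1 itself was at 3.30 log2 RPKM in MD43 and 3.31 in WT, but a missense change need not alter its RNA.

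The family was expressed at similar levels in both genotypes, and its summed level was 125.1 RPKM in MD43 and 127.1 RPKM in WT. The 4 genes Hes5, Hes6, Hes1 and Hey1 made up 98.7% of this sum in MD43 and 98.6% in WT. Heyl and Hey2 were far lower, and Hes7, Hes3 and Hes2 were close to the limit of detection. Of the 9 genes, 6 reached 10 reads in either genotype. None of these 6 was at least 1.5-fold apart between genotypes, the fold taken here as a call, in either direction. The same call was met by 4.24% of the 15377 genes that reached 10 reads in either genotype for higher values in MD43, and by 6.43% for lower ones. At 2-fold these shares were 1.64% and 2.47%. In the 10757 genes that reached 100 reads in each genotype, called well-read below, they were 0.576% and 1.78% at 1.5-fold, and 0.0651% and 0.372% at 2-fold. With 6 genes and such shares, a count of 0 says little about the family. The 6 differences ran from -0.31 to 0.38 with a median of -0.15, against a median of 0.006 over all 15377 genes, and 4 were lower and 2 higher in MD43. The family median was -0.07 over the members with at least 50 reads, and -0.08 with a pseudocount of 1 RPKM.

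**Figure D2:**
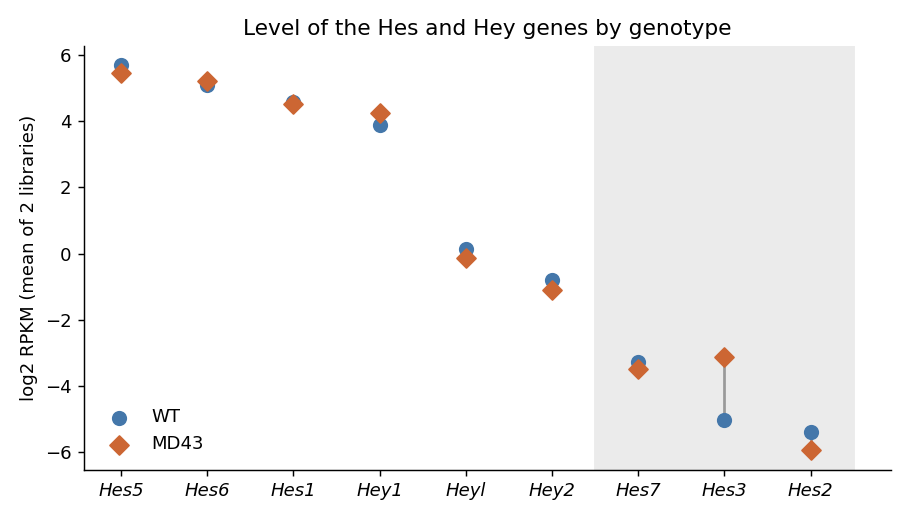
Level of the 9 Hes and Hey genes in log2 RPKM, in WT (blue circles) and MD43 (orange diamonds), each point being the authors' mean of 2 libraries; grey shading marks the 3 genes under 10 reads in both genotypes. Hes5, Hes6, Hes1 and Hey1 lie between 3.88 and 5.70 in both genotypes, and Hes3 has the widest gap, on at most 5 reads.

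Hes5, the Notch effector of neural progenitors (ENSMUSG00000048001, GRCm38 chromosome 4, 154960923 to 154962371, plus strand), was the highest of the family. It was at 5.70 log2 RPKM in WT and 5.47 in MD43, from 1134 and 1349 reads, more reads in the deeper genotype but a lower level. The difference was -0.23 ± 0.04 (counting SE), that is 1.17-fold lower in MD43, with a counting interval of -0.31 to -0.14. Its level exceeded that of 94.0% of the 15377 genes. Among the well-read genes, 12.6% had a difference at least as low, so a difference of this size was common. Gm20421, a non-coding gene on the opposite strand, overlaps 756 bases of Hes5 and had 365 reads in WT and 456 in MD43, a difference of -0.16 ± 0.07. Whether the authors counted by strand is not given in the sources used here, so reads of this pair may be shared.

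Hes1, the other main Notch effector (ENSMUSG00000022528, chromosome 16, 30064384 to 30067796, plus strand), was nearly level between genotypes. It was at 4.59 log2 RPKM in WT and 4.52 in MD43, from 789 and 1044 reads. The difference of -0.07 ± 0.05 had a counting interval of -0.17 to 0.02, which includes 0.

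Hes6, the antagonist of Hes1 (ENSMUSG00000067071, chromosome 1, 91411483 to 91414038, minus strand), was at 5.11 log2 RPKM in WT and 5.21 in MD43, from 1004 and 1494 reads. The difference was 0.10 ± 0.04, or 1.07-fold, and 30.6% of the well-read genes were at least as high. Corrected for GC content and length it was 0.04. Both Hes6 and the genes of young neurons, where Hes6 is at work, were close to level, since the 5 neuron markers in the table had a median of -0.05 (range -0.32 to 0.06), with Tubb3 at 0.02 ± 0.03.

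Hey1 (ENSMUSG00000040289, chromosome 3, 8663359 to 8667256, minus strand) stood furthest from level among the 6. It was at 3.88 log2 RPKM in WT and 4.26 in MD43, from 773 and 1399 reads. The difference was 0.38 ± 0.05, or 1.30-fold higher in MD43, with a counting interval of 0.29 to 0.47. Of the well-read genes, 2.62% had a difference at least as high. This size is beyond read counting, but the counting interval left out 0 in 57.3% of well-read genes and in 50.4% of the 15377, so that alone sets no gene apart. The interval also left out 0 for Hes5, Hes6 and Heyl, 4 of the 6 in all.

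**Figure D3:**
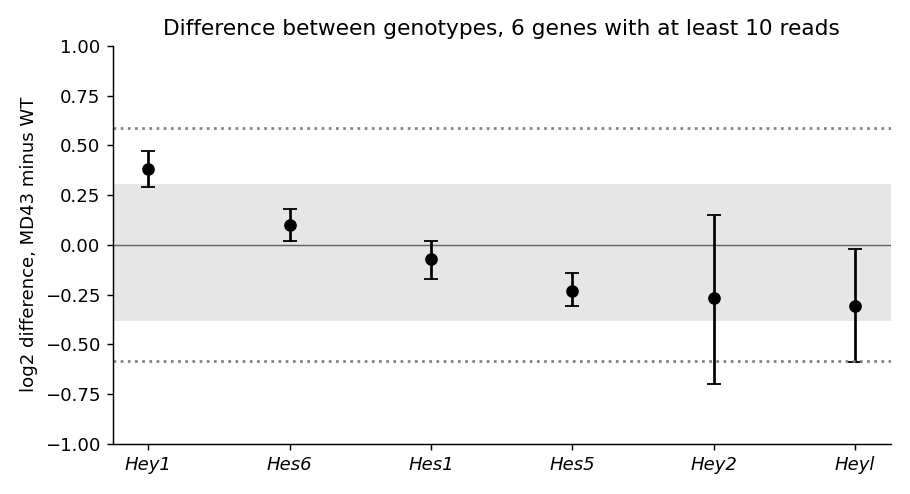
Log2 difference (MD43 minus WT) of the 6 genes with at least 10 reads; bars are 95% counting intervals, without variation between embryos. Dotted lines mark 1.5-fold, and the grey band spans the 5th to 95th percentile (-0.38 to 0.30) of the 10757 well-read genes, a group that Heyl and Hey2 are not part of. Hey1 alone lies outside the band, and no point passes a dotted line.

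Heyl and Hey2, both better known from vessels, were low. Heyl (ENSMUSG00000032744, chromosome 4, 123233556 to 123249875, plus strand) was at 0.15 log2 RPKM in WT and -0.15 in MD43, from 91.2 and 103 reads, a difference of -0.31 ± 0.15 with a counting interval of -0.59 to -0.02. Hey2 (ENSMUSG00000019789, chromosome 10, 30832359 to 30842801, minus strand) was at -0.81 in WT and -1.09 in MD43, from 42.0 and 48.3 reads, a difference of -0.27 ± 0.22 with a counting interval of -0.70 to 0.15. The Hey2 interval reaches past both 0 and 1.5-fold lower, so at this depth neither can be told apart from the other. With a pseudocount of 1 RPKM, which pulls low genes to level, Heyl was at -0.15 and Hey2 at -0.09.

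The values hold some information on single libraries, since the square of the recovered reads is the product of the counts of the 2 libraries of a genotype. For Heyl in MD43 this product was 10519, which whole numbers give as 67 and 157, the remaining pair being 1 and 10519. The counts of the 2 MD43 libraries thus differed 2.34-fold. Across 870 genes whose product also allowed 1 pair alone within 4-fold, the median ratio between the 2 MD43 libraries was 1.51 and 10% of the ratios were above 2.12, so Heyl differed more between these libraries than most such genes. For Heyl in WT the product of 8316 allows 5 pairs within 4-fold, from 84 and 99 to 54 and 154. For Hey2 in MD43 the product of 2332 leaves 44 and 53 as the single pair within 4-fold, a ratio of 1.20. For Hey2 in WT the product of 1764 allows 4 pairs, from 42 and 42 to 21 and 84. The values do not say which of the embryos gave the larger count, and the products of Hes1, Hes5, Hes6 and Hey1 are too large to be resolved to whole numbers.

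The order of the levels per length was the same in both genotypes for these 6, Hes5 over Hes6, Hes1, Hey1, Heyl and Hey2. Each step was larger than its counting interval allows for a tie. The smallest steps in MD43 were Hes5 over Hes6 (0.26, counting interval 0.19 to 0.34) and Hes1 over Hey1 (0.26, 0.18 to 0.34). In WT the same steps were wider, at 0.58 (0.50 to 0.67) and 0.71 (0.61 to 0.81). The step between them, Hes6 over Hes1, went the other way, at 0.69 (0.61 to 0.77) in MD43 and 0.52 (0.42 to 0.61) in WT, where it was the smallest. The Hey1 level was 0.284 of that of Hes5 in WT and 0.433 in MD43, a change in this ratio of 0.61 ± 0.06 (counting SE) on the log2 scale. The ratio of Hes6 to Hes5 went from 0.667 to 0.835, a change of 0.32 ± 0.06. The ratio of Hey2 to Heyl was 0.513 in WT and 0.524 in MD43, a change of 0.03 ± 0.26. Such ratios do not depend on how the libraries were scaled, but they show unequal levels and not which gene moved, and they lack an error between embryos.

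**Figure D4:**
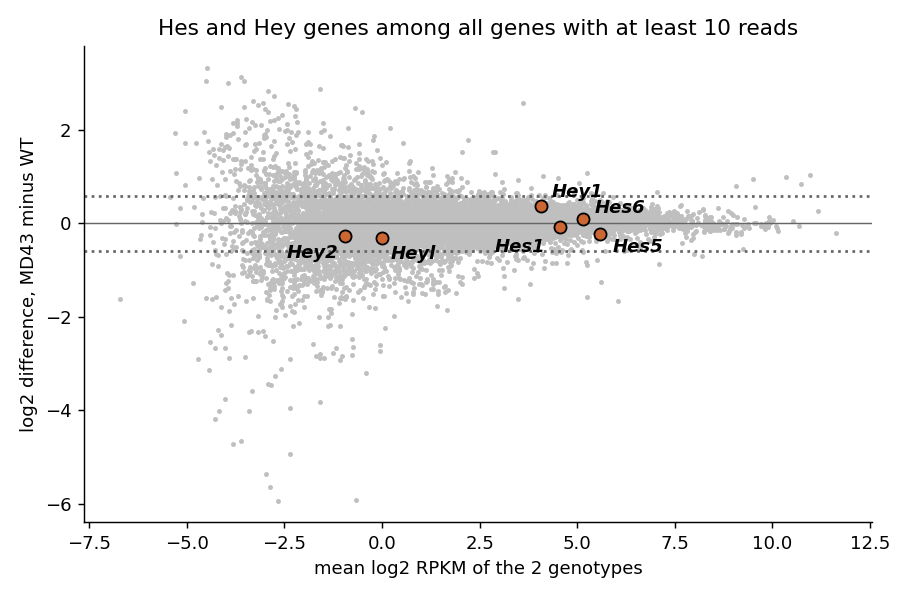
Each grey point is 1 of the 15377 genes that reached 10 reads in either genotype, with its mean log2 RPKM on the x axis and its log2 difference (MD43 minus WT) on the y axis; orange points are the 6 Hes and Hey genes, and dotted lines mark 1.5-fold. All 6 lie between the dotted lines, Hes1, Hes5, Hes6 and Hey1 among the well expressed genes and Heyl and Hey2 among the low ones.

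The remaining members had too few reads for a comparison of levels. Hes3 (ENSMUSG00000028946, chromosome 4, 152285972 to 152291662, minus strand) had 1 read over the 2 WT libraries, with none in the other library. Its MD43 product of 25 allows 5 and 5 reads or 1 and 25. The total in MD43 was therefore 10 or 26 reads against 1 in WT. At the depth ratio of 1.39 this is 7.19-fold (exact counting interval 1.02 to 312) or 18.7-fold (3.07 to 766) higher in MD43. These folds of totals are approximate, since 1.39 is a ratio of geometric means and the summed depths are not known. If the reads were 1 and 25, nearly all came from 1 embryo. Markers of the midbrain-hindbrain boundary, where Hes3 is known to be active, gave little to compare it with. En1 and En2 had at most 3 reads in each genotype, and Pax2 (-1.20 ± 0.21), Pax5 (-0.85 ± 0.23) and Fgf8 (-0.34 ± 0.07), the 3 of 6 markers with at least 10 reads, had lower values in MD43. The summed level of this list was 14.3 RPKM in MD43 and 18.6 in WT, most of it from Fgf8 (3.78 and 4.11 log2 RPKM). Wnt1, the remaining marker, was under 10 reads, with 8.49 in WT and 0.9 in MD43, the value given to a library without reads. With En1, En2 and Wnt1 this low, the list does not show whether boundary cells differed between genotypes.

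Hes7, the clock gene (ENSMUSG00000023781, chromosome 11, 69120404 to 69124055, plus strand), was at -3.28 log2 RPKM in WT and -3.49 in MD43, from 3 and 3.61 reads. Its MD43 product of 13 has a single solution, 1 read in 1 library and 13 in the other. Its WT product of 9 allows 3 and 3, 1 and 9 or 0 and 10. The totals were thus 14 in MD43 and 6 or 10 in WT. Scaled by the same approximate depth ratio, this is 1.68-fold (exact counting interval 0.606 to 5.33) or 1.01-fold (0.416 to 2.53). The 2 MD43 libraries differed by 13-fold while the genotypes did not differ beyond counting. Of 6 presomitic mesoderm and somite markers, Msgn1 and Ripply2 had at most 3 reads in each genotype and 4 had at least 10, with a median of 0.23 (range -1.34 to 0.56). The list summed to 2.26 RPKM in MD43 and 3.11 in WT. A coding gene on the opposite strand, 9130213A22Rik, overlaps 2186 bases of Hes7 and had 2.24 reads in WT and 1.64 in MD43.

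Hes2 (ENSMUSG00000028940, chromosome 4, 152158867 to 152162469, plus strand) had 1 read in each WT library and 1 read in 1 of the MD43 libraries, and no fold is given. Hes2, Hes3 and Hes5 lie on 1 chromosome in this order. Hes2 and Hes3 are 123502 bases apart and both were near 0 reads, while Hes5, a further 2669260 bases on, was the highest of the family.

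The genes upstream and around the repressors were then described from lists of pathway members. Of 28 genes of the Notch pathway, all had at least 10 reads, none was at least 1.5-fold higher and 2 were at least 1.5-fold lower in MD43, with a median difference of 0.00. Over all 15377 genes the shares were 4.24% higher and 6.43% lower. With at least 50 reads in a genotype, which every gene of this list had, they were 1.51% and 3.18%. With 28 genes and such shares, a count of 2 says little about the pathway. The counts of the lists that follow are read against the same shares, the smaller ones where the genes had many reads. The receptors Notch1 (-0.06 ± 0.03), Notch2 (0.02 ± 0.04), Notch3 (0.17 ± 0.03) and Notch4 (0.21 ± 0.15) stayed within 1.2-fold of level. Both genes past the fold were ligands. Dll3, which hinders Notch signalling inside the cell, was at 1.25 log2 RPKM in WT and 0.55 in MD43, from 109 and 93.2 reads, a difference of -0.70 ± 0.14. Dll4, the ligand of arterial endothelium, was at 0.58 and -0.02, from 92.6 and 85.1 reads, a difference of -0.60 ± 0.15. The more abundant ligands were nearer to level, with Dll1 at -0.01 ± 0.04, Jag1 at 0.22 ± 0.05 and Jag2 at 0.10 ± 0.06.

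In the nuclear complex, Rbpj was at -0.19 ± 0.05, Maml1 at 0.05 ± 0.04, Maml2 at -0.42 ± 0.09 and Maml3 at -0.16 ± 0.05. The 15 processing and modulator genes ranged from -0.29 to 0.24. They include Nrarp, itself a Notch target that limits the pathway, which at 4.86 log2 RPKM in WT and 4.85 in MD43 was level (-0.01 ± 0.04), and Lfng, which adds sugars to the receptors (0.23 ± 0.05). The Groucho family holds the co-repressors through which Hes proteins act. Of 6 genes listed, 1 was at least 1.5-fold higher and 1 lower, Tle6 (0.75 ± 0.38) and Tle2 (-0.62 ± 0.29), both on at most 25.6 reads. The same calls were met by 4.24% and 6.43% of all genes. The abundant co-repressors Tle1 (0.21 ± 0.03) and Tle4 (0.00 ± 0.03) were near level, as was Aes, a further family member (-0.13 ± 0.03). The Id genes, whose products sequester basic helix-loop-helix factors, ranged from -0.37 (Id2) to 0.27 (Id4), and the E proteins from -0.17 (Tcf12) to 0.12 (Tcf3).

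Proneural genes, which Hes proteins repress, went both ways. Of 8 listed, 6 had at least 10 reads, of which 1 was at least 1.5-fold higher and 2 lower, with a median of 0.11. Neurog2 was at 2.97 log2 RPKM in WT and 1.91 in MD43, from 280 and 187 reads, a difference of -1.06 ± 0.10, and among well-read genes 0.372% were at least 2-fold lower. Neurog1 (0.12 ± 0.10) was near level. Neurod4 (-0.98 ± 0.29) rested on 30 WT and 21.2 MD43 reads. Neurog3 (1.14 ± 0.55) rested on 4.58 and 14.1.

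**Figure D5:**
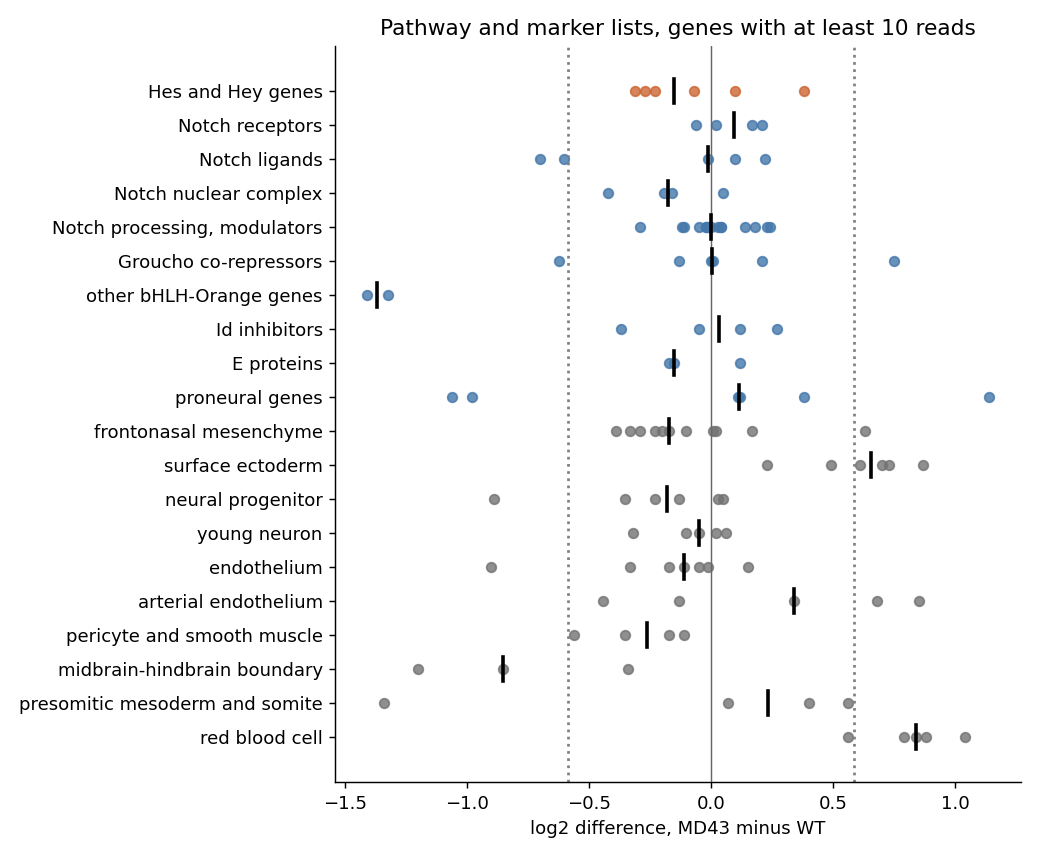
Log2 difference (MD43 minus WT, x axis) of every gene with at least 10 reads in the Hes and Hey family (orange), the pathway lists (blue) and the cell type marker lists (grey); black bars are medians and dotted lines mark 1.5-fold. The Hes and Hey genes lie between the dotted lines, as do the Notch lists but for Dll3 and Dll4, while both bHLH-Orange relatives lie left of -1 and the surface ectoderm and red blood cell markers lie to the right.

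Markers of the cell types that the pieces can hold were set beside the family, and their part in its differences was not tested. All 6 surface ectoderm markers had higher values in MD43, 4 of them at least 1.5-fold, with a median of 0.66 and Cldn6 at 0.87 ± 0.05, and the list summed to 175 RPKM in MD43 and 111 in WT. The 5 arterial endothelium markers had a median of 0.34 and summed to 31.2 and 23.9 RPKM. Most of this sum came from Efnb2 (4.37 log2 RPKM in MD43, 4.03 in WT) and Unc5b (3.13 and 2.46). The endothelium marker Cdh5, the nearest to level of its list, was at 1.28 and 1.29, so the sum need not follow arterial cells. Gja5 was at 0.85 ± 0.30, Gja4 at -0.44 ± 0.24 and Sox17 at -0.13 ± 0.22. The surface ectoderm and arterial medians share the sign of Hey1, but Gja4 and Sox17 do not. The 7 endothelium markers had a median of -0.11 (13.4 and 14.6 RPKM in sum) and the 4 pericyte and smooth muscle markers with at least 10 reads a median of -0.26 (12.4 and 16.3 RPKM over all 7), beside -0.31 for Heyl and -0.27 for Hey2. The 6 neural progenitor markers had a median of -0.18 and summed to 247 RPKM in MD43 and 280 in WT, beside -0.23 for Hes5, and ranged from Fabp7 (-0.89 ± 0.05) to Msi1 (0.05 ± 0.02). The 11 frontonasal mesenchyme markers had a median of -0.17 and summed to 174 and 178 RPKM. The 5 red blood cell markers had a median of 0.84 and summed to 5810 and 3060 RPKM.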

How the data were processed

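RNA-seq libraries of 4 FNPs, 2 per genotype, were made from 100 ng of total RNA with a stranded mRNA kit, per the labels. Groups and replicate numbers come from the sample titles. The authors trimmed reads with Trim Galore 0.4.4, mapped them with HISAT2 2.0.5 to GRCm38.p6 and quantified them in SeqMonk. The deposited table holds the authors' log2 RPKM, scaled by transcript length and library size, with the 2 libraries of a genotype merged and without sex chromosomes. It also holds the authors' own fold change, mean and FDR, which were not used.

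Differences were computed as MD43 minus WT, with no pseudocount, in Python 3.11.15 (pandas 2.3.3, numpy 2.4.6, scipy 1.17.1). Rows were joined to GENCODE M21 by symbol and position (33101 of 33708). Reads were recovered from the rows without reads: 12862 rows shared a difference of -0.4758, and in 97.9% of the matched ones the log2 RPKM plus the log2 exon length was constant, at 0.9 reads per empty library. Of the products of the 2 libraries' reads between 1000 and 20000, 99.7% in each genotype were whole numbers, or 0.9 times one, within 0.02. The recovery was tested on simulated data. Products of Hes1, Hes5, Hes6 and Hey1 exceed this range. Intervals cover counting error only, and exact intervals of totals are Clopper-Pearson at 95%.

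A count-based test had been foreseen for counts per library. The table holds none, so no test was run and a call means a fold past 1.5 with at least 10 reads in a genotype. All 9 members are named. From each list, up to 5 genes are named, the most abundant and those past 1.5-fold, and further markers where their level bears on a member. The members and lists were chosen with earlier results of these data known. The alternatives were pseudocounts of 0.1 and 1 RPKM, centring, a correction for GC and length, other filters and a 2-fold threshold.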

Additional observations from a re-analysis of the deposited data

How the results depend on the processing

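For Hes1, Hes5, Hes6, Hey1, Heyl and Hey2, all 30 values under 5 alternatives (pseudocounts of 0.1 and 1 RPKM, centring on either of 2 sets of genes, and the correction for GC content and length, which accounted for 1.39% of the variance) kept their sign and stayed within the counting interval of the difference. A pseudocount cannot turn a sign, so this is no test of stability, and some values moved by over 1.5 times. Hes6 went from 0.10 to 0.04 with the correction for GC content and length. With a pseudocount of 1 RPKM, Heyl went from -0.31 to -0.15, Hey2 from -0.27 to -0.09 and the family median from -0.15 to -0.08. With at least 50 reads that median was -0.07. Without a filter on low values, 1 gene, Hes3, was at least 1.5-fold higher in place of 0. The share of all genes at least 1.5-fold higher fell from 4.24% to 1.51% with at least 50 reads in a genotype and was 1.64% at 2-fold, and that of lower genes went from 6.43% to 3.18% and 2.47%. Fewer or stricter calls follow from these settings themselves. Of 79 list medians under other settings, 77 stayed within their counting error. With a pseudocount of 1 RPKM the bHLH-Orange median went from -1.36 to -0.62 and the midbrain-hindbrain boundary median from -0.85 to -0.32, by the pseudocount's pull on low genes.

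No paired analysis was possible because each genotype has 1 merged value in the table analysed here. For the same reason leaving out a library and tests on counts (edgeR, DESeq2) were not run. Depth limits Hes2, Hes3 and Hes7.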

Other observations

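Of 3 listed relatives outside the Hes and Hey branches, 2 had the most negative differences among the pathway genes with at least 10 reads. Bhlhe40 (also called Dec1) and Bhlhe41 (Dec2) encode bHLH-Orange repressors that respond to hypoxia and to the daily clock. Bhlhe40 was at 1.69 log2 RPKM in WT and 0.38 in MD43, from 245 and 137 reads, a difference of -1.32 ± 0.11 (counting SE). Bhlhe41 was at -0.83 in WT and -2.24 in MD43, from 60.8 and 31.8 reads, a difference of -1.41 ± 0.22. Both had fewer reads in the deeper genotype. A value 2-fold lower or more in MD43 was seen in 2.47% of the 15377 genes that reached 10 reads in either genotype, and in 0.372% of the 10757 well-read genes. Helt, the remaining gene of this list, had 8 reads in WT and 9.38 in MD43. The values carry no replicate error.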
